A study of Mus musculus with 41 samples.

Results

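Lactylation of lysine 18 of histone H3 (H3K18la) was compared with trimethylation of lysine 4 (H3K4me3) in mouse gastrocnemius muscle (GAS) by merging the peaks of both hPTMs wherever at least 1 bp overlapped. The merging gave 51256 regions, of 117116 that arose when all 24 peak lists of the series were merged. A region with peaks of both marks was classed as both, and any other region as H3K18la only or H3K4me3 only. It was called a promoter region where it touched the 2000 bp on either side of an annotated transcription start site (TSS), and distal otherwise.

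The series profiled 4 hPTMs by CUT&Tag, in which an antibody tethers a transposase that cuts and tags DNA beside the mark, in 41 samples of stem cells, muscle cells, macrophages and fat. The comparison used 4 of these samples, 2 biological replicates of GAS for H3K18la and 2 for H3K4me3. All 4 were labelled C57BL/6 and control, and the study describes its mice as female C57Bl6/J animals aged 8 to 12 weeks. The muscle was frozen, and nuclei were freed from the whole tissue in a dounce homogenizer, so that nuclei of vessels and connective tissue were sampled along with those of the fibres, and fewer cells with a mark cannot be told apart from less of the mark per cell.

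H3K4me3 is laid down by methyltransferases that are recruited to CpG islands (CGI) and to initiating RNA polymerase, and it marks the promoters of active genes as well as the poised promoters of developmental genes that also carry H3K27me3. H3K18la is a lactate-derived acylation of the histone tail, found, like H3K27ac, at active promoters and enhancers. The gastrocnemius is a mixed limb muscle rich in fast, glycolytic fibres, which release lactate when they contract.

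Short stretches of DNA from each class are shown first, because the classes differed in the sequence below their maxima, as set out further on. For each class the region with the largest total signal was taken among those whose nearest protein-coding TSS belonged to a listed gene of contraction, calcium handling, energy metabolism, the neuromuscular junction or myogenic regulation, the atrophy and clock lists not included, and the 200 bases around its maximum were read from the plus strand of GRCm38/mm10. Where several TSSs lay in a region, the one closest to its middle was taken, so the wide region over Tnnt3 counted as one of its neighbour Lsp1, and that upstream of Tnni1 as one of Phlda3. Capitals mark CG dinucleotides and the E-box CAGCTG, the core to which myogenic bHLH factors such as MyoD bind. Of the window at the Sdha promoter only 28 bases lie outside annotated untranslated exons, and only these are shown.
Both marks, promoter region of Tpm1 (tropomyosin), intergenic, 11009 bp from the TSS, chr9:67060415-67060614: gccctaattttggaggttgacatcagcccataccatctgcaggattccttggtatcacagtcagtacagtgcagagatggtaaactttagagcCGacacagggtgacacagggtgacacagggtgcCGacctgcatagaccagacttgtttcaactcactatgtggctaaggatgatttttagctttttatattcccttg
H3K18la only, promoter region of a noncoding transcript within an intron of Mef2d (a MADS-box factor of muscle genes), chr3:88166237-88166436: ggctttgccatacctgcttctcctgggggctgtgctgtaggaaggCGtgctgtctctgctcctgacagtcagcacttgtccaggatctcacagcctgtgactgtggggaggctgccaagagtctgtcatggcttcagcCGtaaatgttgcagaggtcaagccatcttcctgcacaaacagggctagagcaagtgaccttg
H3K4me3 only, promoter of Sdha (a subunit of succinate dehydrogenase), between Sdha and its divergent neighbour, chr13:74350281-74350308: attctgCGcctgCGcaacaCGcccctcc
Both marks, distal, intron of Jph2 (junctophilin, which ties the calcium store to the cell membrane), chr2:163386882-163387081: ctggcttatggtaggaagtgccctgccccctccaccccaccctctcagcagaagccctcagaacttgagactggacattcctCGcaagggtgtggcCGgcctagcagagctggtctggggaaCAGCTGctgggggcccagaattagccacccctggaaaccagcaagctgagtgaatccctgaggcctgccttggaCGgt
H3K18la only, distal, 91220 bp from the nearest Tpm1 TSS and in an intron of Gm19299, chr9:67140626-67140825: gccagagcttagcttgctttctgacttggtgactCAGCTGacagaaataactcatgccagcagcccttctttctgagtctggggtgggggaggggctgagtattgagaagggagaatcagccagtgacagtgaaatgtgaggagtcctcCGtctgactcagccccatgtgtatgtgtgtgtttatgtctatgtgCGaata
H3K4me3 only, distal, intergenic, 6615 bp from the TSS of Pax3 (a factor of muscle progenitors), chr1:78203749-78203948: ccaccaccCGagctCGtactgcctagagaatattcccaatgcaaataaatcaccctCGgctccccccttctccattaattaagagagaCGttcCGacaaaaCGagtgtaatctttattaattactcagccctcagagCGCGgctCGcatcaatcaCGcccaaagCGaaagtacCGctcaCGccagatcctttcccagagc

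The Pax3 stretch held 13 CG dinucleotides in 200 bases, against 2 in each Tpm1 stretch and in the Mef2d stretch and 3 in that of Jph2. It is not typical of distal regions with H3K4me3 only, whose median was 2.00 per window, as in distal regions with H3K18la only. The 28 bases at Sdha held 3. An E-box was present in the Jph2 stretch and in the distal Tpm1 stretch.

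H3K18la was called over a wider part of the genome than H3K4me3 and mostly away from TSSs. The H3K18la list held 36813 peaks on chromosomes 1 to 19 and X, which covered 123 Mb with a median width of 2331 bp (quartiles 1713 and 3725). The H3K4me3 list held 28915 peaks over 52.8 Mb with a median width of 1467 bp (quartiles 899 and 2374). Of the H3K18la peaks 35.1% touched a promoter, and of the H3K4me3 peaks 62.1%. The marks had 24.4 Mb in common, which was 19.8% of the H3K18la bases and 46.3% of the H3K4me3 bases.

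Replicates were pooled before peaks were called, so each mark has a single list, no spread between animals can be given and no difference was tested. Shares are given with 95% Wilson intervals, and differences of shares with Newcombe intervals. Both cover counting error only. Sequencing depth was not analysed here. The lists have a low edge, with a lowest maximum coverage (the largest number of fragments over a base) of 14 for H3K18la and 8 for H3K4me3, so a mark that was not called can still have been present below it.

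Promoter regions most often carried H3K4me3, alone or together with H3K18la, whereas H3K18la alone prevailed in distal regions. Of the 22026 promoter regions 8131 carried both marks (36.9%, 36.3 to 37.6), 9500 carried H3K4me3 only (43.1%, 42.5 to 43.8) and 4395 carried H3K18la only (95% interval of the share 19.4 to 20.5%). Of the 29230 distal regions 3869 carried both (13.2%, 12.9 to 13.6), 19885 H3K18la only (68.0%, 67.5 to 68.6) and 5476 H3K4me3 only (18.7%, 18.3 to 19.2). The split depended on the length of the lists. With H3K18la reduced to its 6601 peaks of largest total signal, which have as many called bases as H3K4me3, 16.8% of distal regions were H3K18la only and 13.5% of promoter regions had both marks. With the 5000 peaks of largest total signal from each list these shares were 92.0% and 17.0%.

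**Figure D1:**
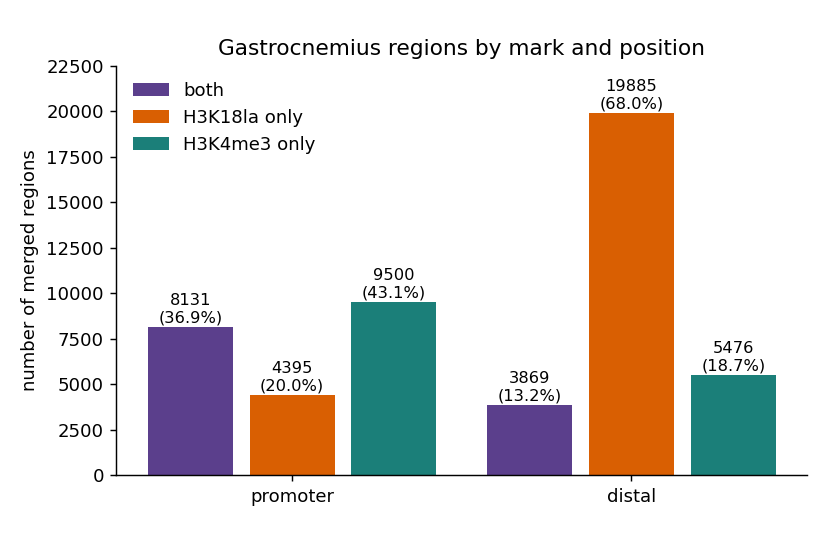
Number of merged regions (y axis) with both marks, H3K18la only or H3K4me3 only, for promoter and distal regions (x axis), with the share of each position in brackets. H3K18la-only regions are the smallest promoter class (4395) and the largest distal class (19885).

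The promoter regions with H3K18la only were mostly not promoters of protein-coding genes. Their median distance to the nearest protein-coding TSS was 11565 bp (quartiles 1408 and 39616), against a median of 0 bp for both other promoter classes. Of the 4395 regions 47.5% lay within 10 kb of such a TSS, against 88.3% of the promoter regions with both marks and 91.0% of those with H3K4me3 only. Most of them were thus promoter regions through the TSS of a noncoding transcript, and 88.8% overlapped an annotated transcript. Distal regions with H3K18la only lay a median of 34973 bp from a protein-coding TSS, those with both marks 24553 bp and those with H3K4me3 only 29426 bp. Of the distal regions 63.2%, 61.0% and 45.2% in the same order overlapped a transcript.

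Regions with both marks were the widest, and within them H3K18la was the wider mark in distal regions, whereas in promoter regions the median widths of the marks were close. Promoter regions with both had a median width of 3640 bp (interval 3579 to 3694), against 2380 bp (2331 to 2429) with H3K18la only and 1670 bp (1647 to 1692) with H3K4me3 only. In distal regions the medians were 3352 bp (3273 to 3435), 2177 bp (2161 to 2193) and 847 bp (830 to 864). A merged region can only be as wide as its widest peak or wider, so called bases per mark were compared within the shared regions. In promoter regions with both marks H3K18la covered a median of 2705 bp and H3K4me3 of 2633 bp, a ratio of 1.03 (0.992 to 1.07 from the intervals of the medians). In distal regions with both the medians were 3252 and 1129 bp, a ratio of 2.88. H3K18la was the wider mark in 56.4% of the promoter regions and in 92.4% of the distal ones. The promoter ratio was 0.905 with TSSs of protein-coding transcripts only and 1.96 with H3K18la reduced to as many bases as H3K4me3.

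The upper tail belonged to H3K18la. Among the promoter regions with both marks H3K18la covered at least 10000 bp in 770 (9.47%) and H3K4me3 in 104 (1.28%). Among the distal regions with both the counts were 317 and 6. Regions of H3K4me3 alone reached this width in 3 of 9500 promoter and 2 of 5476 distal cases, and regions of H3K18la alone in 142 of 4395 and 250 of 19885.

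**Figure D2:**
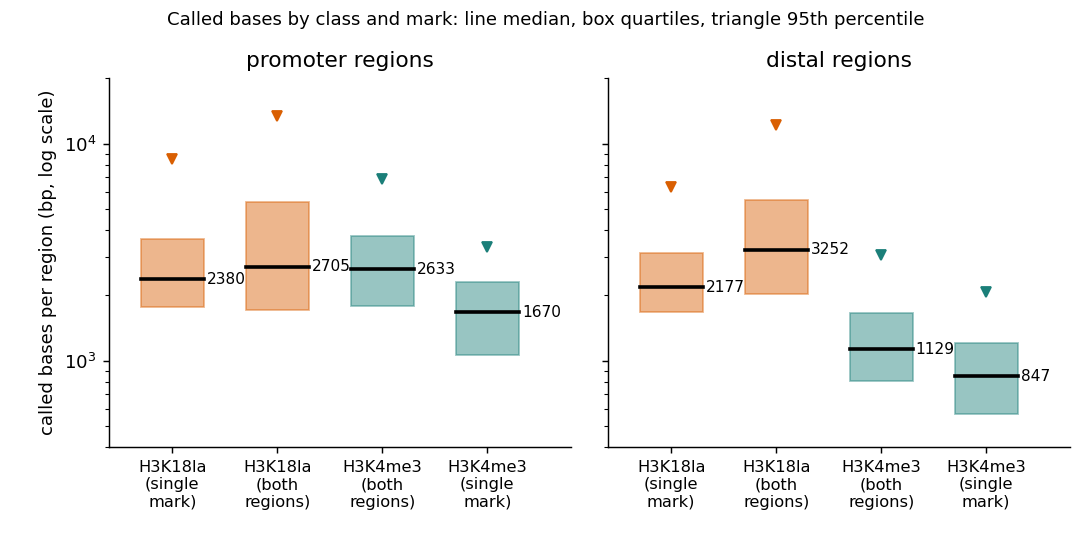
Called bases per region on a log scale (y axis) for each mark, in regions with that mark alone and in regions with both (x axis), promoter left and distal right. The medians of both marks lie close together in promoter regions with both (2705 and 2633 bp) and far apart in distal ones (3252 and 1129 bp).

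Nesting differed between the positions. In distal regions with both marks all H3K4me3 bases lay within H3K18la in 2930 of 3869 (75.7%, 74.4 to 77.1), the reverse held in 106 (2.74%, 2.27 to 3.30) and the marks overlapped partly in 829 (21.4%, 20.2 to 22.7). Their bounds were identical in 4. In promoter regions H3K4me3 lay within H3K18la in 2592 of 8131 (31.9%, 30.9 to 32.9), H3K18la lay within H3K4me3 in 1787 (22.0%, 21.1 to 22.9) and 3752 overlapped partly (46.1%, 45.1 to 47.2). Where H3K4me3 was nested in a promoter region, the medians were 5316 bp of H3K18la and 1921 bp of H3K4me3. Where H3K18la was nested they were 1496 and 2883 bp. With H3K18la reduced to the bases of H3K4me3, the promoter share with H3K4me3 nested was 61.1%, and with the 5000 largest peaks of each list 52.3%.

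A single peak of each mark formed 82.1% of the promoter and 91.5% of the distal regions with both. Several H3K4me3 peaks under 1 H3K18la peak made up 971 promoter regions (11.9%), and several H3K18la peaks joined by 1 H3K4me3 peak 344 (4.23%). The stretches of highest coverage of the marks lay a median of 227 bp apart in promoter regions (quartiles 58 and 972) and 220 bp in distal ones (62 and 704). They were more than 1000 bp apart in 24.4% and 18.7%.

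In genes with both marks each mark covered more genes downstream than upstream at 1000 bp from the TSS and at the larger distances measured, while the position most often covered by H3K18la lay just upstream of the TSS. At the most upstream TSS of the 6977 protein-coding genes with both marks, H3K18la peaks covered the largest share of genes at -150 bp (73.1%). The H3K4me3 share was nearly level from the TSS (87.8%) to its maximum 550 bp downstream (88.1%), so the place of that maximum carries little weight. At 1000 bp the H3K4me3 shares were 47.5% upstream and 81.1% downstream, and the H3K18la shares 47.7% and 53.8%. At 2000 bp H3K18la covered 24.1% upstream and 36.4% downstream, and H3K4me3 14.1% and 42.3%. Downstream the order of the marks turned farther out, and 5000 bp upstream and downstream H3K18la covered 13.1% and 21.8% of the genes and H3K4me3 5.86% and 10.7%. In the 6792 genes with H3K4me3 only, H3K4me3 covered 85.0% of TSSs and 16.4% of the positions 2000 bp downstream, against 42.3% in genes with both marks, and 5000 bp away it covered 4.18% upstream and 3.05% downstream. In the 401 genes with H3K18la only, H3K18la covered 42.1% upstream and 35.9% downstream at 1000 bp, the reverse of its order in genes with both.

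**Figure D3:**
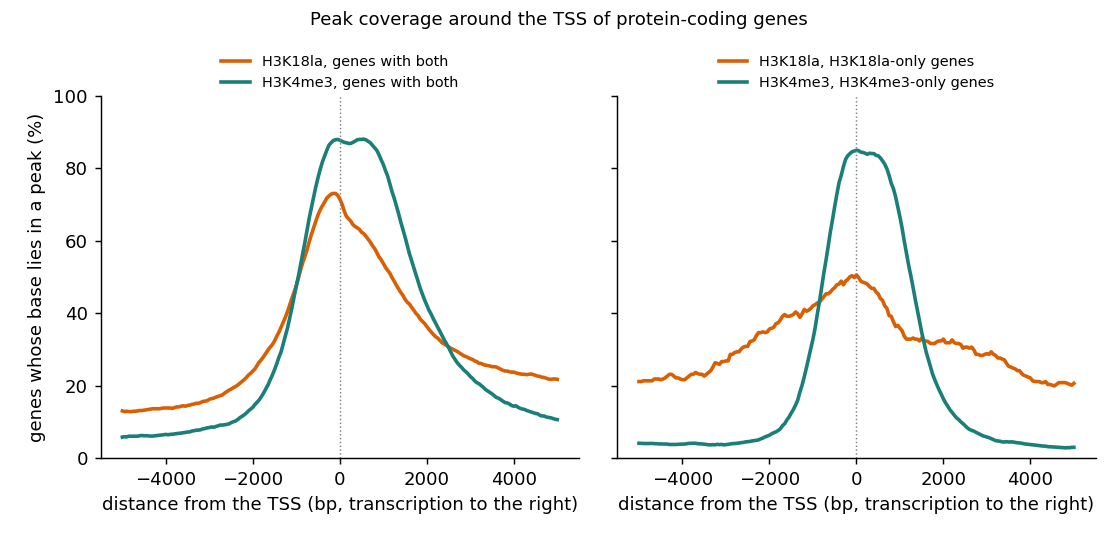
Share of protein-coding genes (y axis, percent) in which the base at a given distance from the most upstream TSS (x axis, bp) lay in a peak, for genes with both marks on the left and genes with a single mark on the right. In genes with both, H3K4me3 is nearly level from the TSS (87.8%) to 550 bp downstream (88.1%), and H3K18la is highest at -150 bp (73.1%).

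The marks were called together more often where either had high coverage. Promoter regions with H3K4me3 were ranked by its maximum coverage and split into 5 equal groups. H3K18la was present in 29.1% (27.6 to 30.6) of the lowest group and in 57.9% (56.3 to 59.6) of the highest. H3K27ac was present in 31.8% and 83.1% of these groups, and H3K27me3 in 26.4% and 2.75%. Distal regions with H3K18la, split in the same way by its maximum, carried H3K4me3 in 5.20% (4.60 to 5.87) of the lowest group and 39.2% (37.9 to 40.6) of the highest. Median maximum coverage of H3K4me3 was 106 in promoter regions with both and 70 in those with H3K4me3 only, and that of H3K18la in distal regions was 81 with both and 47 alone.

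H3K27ac and H3K27me3, which the classes did not use, were divided between them. H3K27ac, the mark of active promoters and enhancers, was called in 83.0% of promoter regions with both marks, 61.5% of those with H3K18la only and 37.5% of those with H3K4me3 only. The difference between both and H3K4me3 only was 45.5 percentage points (44.2 to 46.8), and the interval of that between H3K18la only and H3K4me3 only was 22.2 to 25.7 points. In distal regions the shares were 79.5%, 54.5% and 15.2%, and H3K18la only exceeded H3K4me3 only by 39.3 points (38.1 to 40.4). H3K27me3, the Polycomb mark of repressed genes, was called in 19.5% (18.7 to 20.3) of promoter regions with H3K4me3 only, 7.27% of those with both and 3.78% of those with H3K18la only. Distal shares were 15.5%, 7.55% and 3.28%. The promoter share with H3K4me3 only was 5.74% with the 5000 largest peaks of each list and 14.7% with H3K18la reduced to the bases of H3K4me3. Neither H3K27ac nor H3K27me3 was called in 70.9% of distal regions with H3K4me3 only.

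Wider regions have more room to touch another peak, so the same shares were taken in a window of 200 bp at the maximum of H3K18la, or of H3K4me3 where it was alone. H3K27ac then covered 76.1% of promoter regions with both marks, 53.9% with H3K18la only and 32.3% with H3K4me3 only, and 75.4%, 48.6% and 14.3% of the distal ones. H3K27me3 covered 4.50%, 2.57% and 15.1% of the promoter windows and 5.79%, 2.34% and 13.9% of the distal ones. The order of the classes was that of the whole regions.

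**Figure D4:**
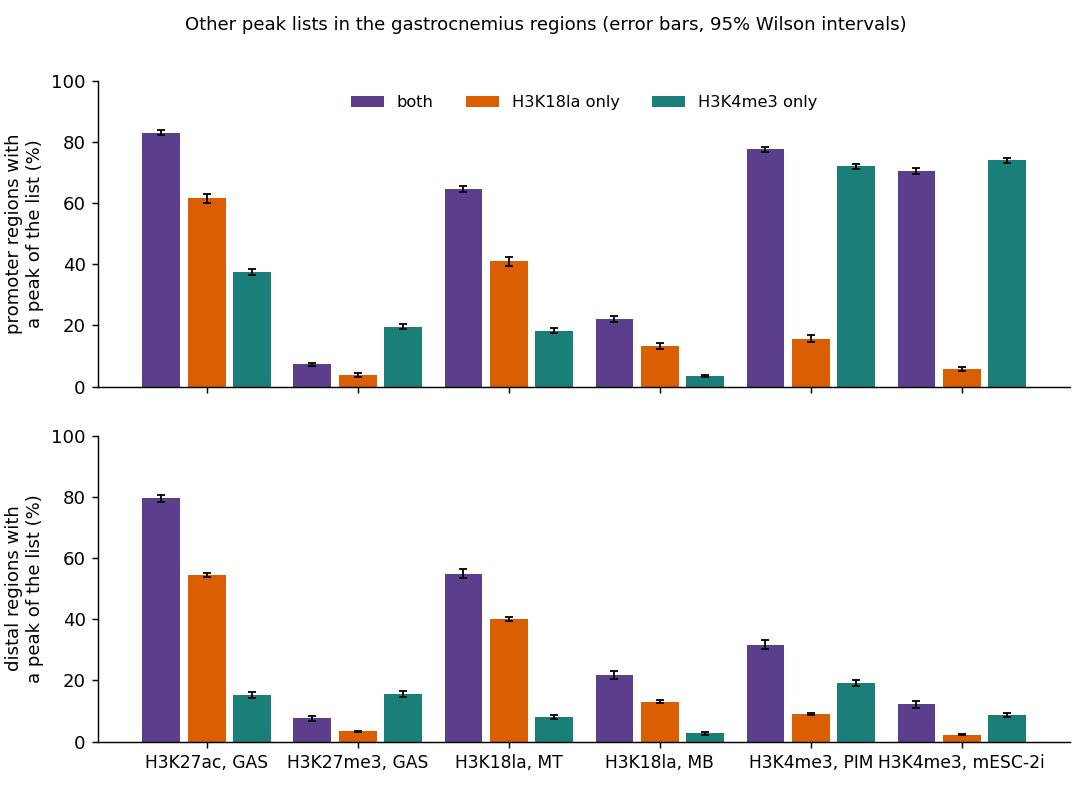
Share of GAS regions (y axis, percent) that hold a peak of another list (x axis), by class, for promoter regions on top and distal regions below, with 95% Wilson intervals. Promoter regions with H3K4me3 only have the lowest H3K27ac share (37.5%) and the highest H3K27me3 share (19.5%) of the 3 promoter classes, and H3K4me3 of mESC-2i is frequent in them (73.9%) as in regions with both (70.5%).

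Promoter regions with H3K4me3 only mostly carried H3K4me3 in other cell types as well. H3K18la of myotubes (MT), like that of each of the other cell types, was called most often in regions with both marks. Of the promoter regions with H3K4me3 only, 73.9% carried H3K4me3 in embryonic stem cells in 2i medium (mESC-2i), 72.0% in post-ischemia macrophages from muscle (PIM) and 56.9% in stem cells in serum (mESC-ser). For promoter regions with both marks the shares were 70.5%, 77.5% and 59.5%, and for those with H3K18la only 5.80%, 15.7% and 3.55%. H3K18la of MT was called in 64.7% of promoter regions with both, 40.9% with H3K18la only and 18.2% with H3K4me3 only, and H3K18la of myoblasts (MB) in 22.1%, 13.2% and 3.48%. In distal regions MT H3K18la was called in 54.9%, 40.0% and 7.96%. The distal difference between H3K18la only and H3K4me3 only was 32.1 points (31.1 to 33.0). Adipocyte H3K18la was called in 39.1% of the promoter regions with H3K4me3 only.

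The DNA below the maxima was CpG rich where H3K4me3 stood alone at promoters. A window of 200 bases was called CpG rich where GC made up 50% or more of it and its ratio of observed to expected CpG reached 0.6, which held for 17.2% of all 51256 windows. Of promoter regions with H3K4me3 only 57.1% (56.1 to 58.1) were CpG rich, with a median of 12 CG dinucleotides per window. With both marks 32.9% (31.9 to 34.0) were, with a median of 6.00, and with H3K18la only 1.02% (0.766 to 1.37), with 2.00. Distal shares were 7.14% with H3K4me3 only, 4.81% with both and 0.478% with H3K18la only. The 28 bases from the Sdha promoter are an example of the first kind, and the Mef2d stretch of the last. The window follows the mark that defines the class and so lies at the H3K18la maximum in regions with both.

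Motifs were looked for in the same windows, on both strands. The E-box CAGCTG was found in 16.2% of all windows, in 21.2% (19.9 to 22.5) of distal regions with both marks, 18.8% (18.3 to 19.4) of those with H3K18la only and 10.2% (9.42 to 11.0) of those with H3K4me3 only. The promoter shares in this order were 16.4%, 19.9% and 10.5%. The MEF2 site, bound by the MADS-box factors of muscle genes, was found in 3.67% of all windows and in 7.31% (6.54 to 8.18), 4.57% (4.29 to 4.87) and 2.98% (2.56 to 3.46) of the distal classes. The ETS core CCGGAAG, which itself holds a CG dinucleotide, was found in 3.93% of all windows and in 11.9% (11.3 to 12.6) of promoter regions with H3K4me3 only, 5.44% of those with both and 1.52% of those with H3K18la only. The NRF1 motif GCGCATG was found in 1.92% of all windows, and in 4.29%, 3.22% and 0.660% of the same promoter classes. The SRF-bound CArG box was found in 0.927% of all windows and in 0.758% to 1.29% of the windows of the 6 classes. A match of letters is no proof of binding.

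At the level of genes H3K18la at a promoter was rarely found without H3K4me3, whereas H3K4me3 was often found without H3K18la. Of 21670 protein-coding genes 6977 carried both marks within 2000 bp of a TSS (32.2%), 401 H3K18la only (1.85%), 6792 H3K4me3 only (31.3%) and 7500 neither (34.6%). Of the genes with H3K18la 94.6% (94.0 to 95.1) had H3K4me3, and of the genes with H3K4me3 50.7% (49.8 to 51.5) had H3K18la. The latter share was 20.1% with the 5000 largest peaks of each list and 13.6% with H3K18la reduced to the bases of H3K4me3. H3K27ac was called at 85.0% of genes with both, 49.9% with H3K18la only, 48.3% with H3K4me3 only and 5.00% with neither, and H3K27me3 at 10.4%, 21.9%, 25.4% and 32.6%.

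Sarcomere genes shared by the fibre types and genes of fast fibres carried both marks almost throughout, against 32.2% of all protein-coding genes. All 15 listed sarcomere genes shared by the fibre types, all 12 genes of excitation-contraction coupling and all 15 genes of glycolysis, glycogen and creatine metabolism had both marks, and each of them had H3K27ac. Of the 12 fast-fibre genes 10 had both. The remaining pair, Myh1 and Myh2 (myosin heavy chains of fast fibres), had neither mark but H3K27ac, whereas Myh4, the heavy chain of the fastest fibres, had 7442 bp of H3K18la and 8214 bp of H3K4me3. These myosin genes are similar in sequence and lie in a cluster, and how reads were placed between them was not tested.

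The peaks at these genes were wide. Over the 6977 genes with both marks, the peaks that touched a promoter summed to a median of 2754 bp of H3K18la and 3163 bp of H3K4me3, and H3K18la was the wider in 46.4%. Over the 15 sarcomere genes the medians were 8750 and 6507 bp, and H3K18la was wider in 14. Over the 15 glycolysis genes they were 10914 and 6874 bp, and H3K18la was wider in 12. Over the 10 fast-fibre genes they were 9291 and 7580 bp, and it was wider in 5.

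Individual genes varied around these medians. Tnnt3 (fast troponin T) had 34746 bp of H3K18la and 11518 bp of H3K4me3. Tpm1 (tropomyosin) had 25797 and 11336 bp, and 16 distal regions with H3K18la had its TSS as the nearest, 13 of them without H3K4me3 and 3 with it. Cmya5, which encodes a protein anchored at the Z-disc and the costamere, had 14803 and 4155 bp. At the other end Actn3, the alpha-actinin of fast fibres, had 2905 bp of H3K18la and 6947 bp of H3K4me3. Ryr1, the calcium release channel, had 4203 and 5362 bp, and Casq1, the calcium buffer of the store, 10468 and 6020 bp. Among the metabolic genes Pygm, the muscle glycogen phosphorylase, had 15443 and 7149 bp, Ckm, the muscle creatine kinase, 6331 and 6874 bp, and Gbe1, the glycogen branching enzyme, 2553 and 2545 bp.

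**Figure D5:**
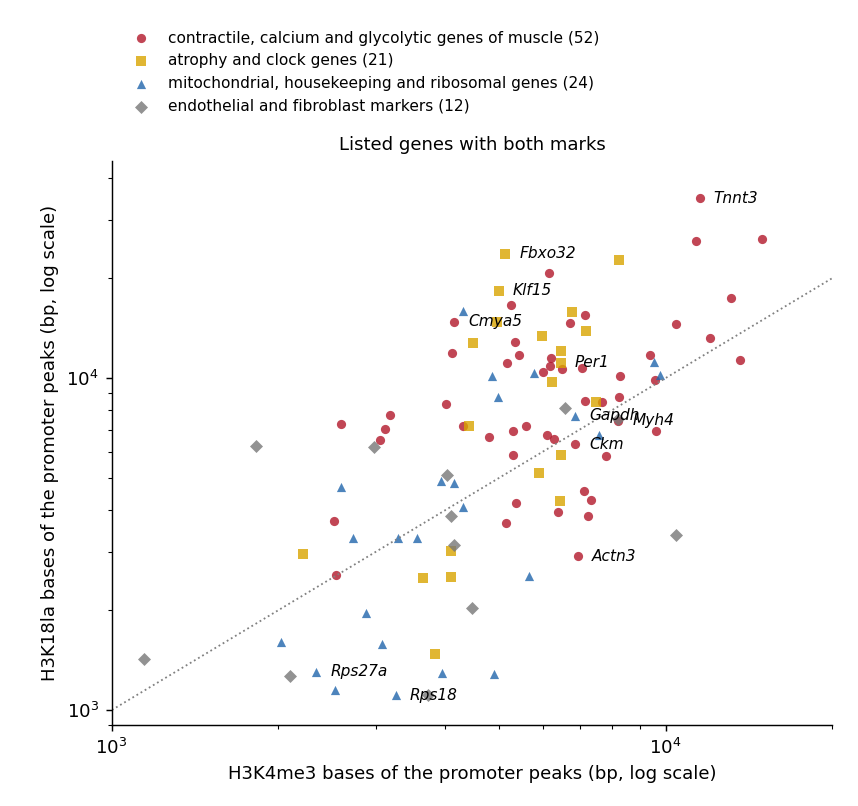
Bases of the H3K18la peaks (y axis, log scale) and of the H3K4me3 peaks (x axis, log scale) that touch a promoter, each point a listed gene with both marks, with equal width on the dotted line. Tnnt3 is the widest in H3K18la (34746 bp), Fbxo32 and Klf15 lie far above the line, and the ribosomal genes Rps18 and Rps27a far below it.

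Slow-fibre genes were found in all classes, with shares of both marks and of H3K4me3 only near those of all genes. Of 10 listed genes 3 (30.0%, against 32.2% of all genes) had both marks (Tnnc1, Mybpc1 and Casq2), 1 had H3K18la only, 3 (30.0%, against 31.3%) had H3K4me3 only (Myl3, Atp2a2 and Myoz2) and 3 had neither (Myh7, Tnnt1 and Myl2). The gene with H3K18la only was Tnni1, slow troponin I, with 19167 bp of H3K18la, a maximum coverage of 134 and H3K27ac. This peak also covered a TSS of the neighbour Phlda3, and H3K4me3 was called within it, away from the Tnni1 promoter. Myh7 and Myl2, the slow myosin heavy chain and a slow light chain, carried H3K27me3 and no H3K27ac, whereas Tnnt1 carried H3K27ac and no H3K27me3. Of all genes with neither mark 32.6% carried H3K27me3 and 5.00% H3K27ac. Tnnc1 had 1871 bp of H3K18la and 3590 bp of H3K4me3. The share of slow-fibre nuclei in these samples was not measured.

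Myogenic regulators had both marks in 11 of 13, against 32.2% of all genes. Myf5 and Myf6, neighbours on chromosome 10, shared a single H3K18la peak of 13793 bp, with 1312 bp of H3K4me3 at Myf5 and 5307 bp at Myf6. Myf6 encodes MRF4, the MyoD family factor of mature fibres. Myod1 had 1920 and 4428 bp, and Myog, the factor of differentiation, 6120 and 2027 bp. Mef2d had 22560 and 16107 bp, and Mef2c had 24 distal regions with H3K18la only. The exceptions were Pax7 and Pax3, factors of satellite cells and progenitors, which had 2932 and 3422 bp of H3K4me3 without H3K18la and carried H3K27me3 without H3K27ac. The CG-rich stretch near Pax3 shown above belongs to a distal region that also held H3K27me3.

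At the neuromuscular junction 5 of 10 genes had both marks (Chrnb1, Musk, Dok7, Rapsn and Lrp4), against 32.2% of all genes. Colq, which anchors acetylcholinesterase at the synapse, had 5788 bp of H3K18la only, and Chrna1, an acetylcholine receptor subunit, 1030 bp of H3K4me3 only. Chrnd, Chrne and Chrng, further receptor subunits, had neither, as did 34.6% of all genes. H3K27ac was called at Chrne and Chrng, beside 5.00% of all genes with neither mark, and H3K27me3 at Chrnd and Chrng, beside 32.6%. These genes are transcribed mainly by the few nuclei below the synapse.

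Genes of atrophy and of the response to fasting and glucocorticoids had both marks in 10 of 10, against 32.2% of all genes, and H3K18la was the wider in 7, beside 46.4% of all genes with both. The median was 12442 bp of H3K18la, against 5568 bp of H3K4me3. Fbxo32 (atrogin-1) and Trim63 (MuRF1), the ubiquitin ligases of muscle wasting, had 23659 and 12102 bp of H3K18la and 5139 and 6479 bp of H3K4me3. Klf15, induced by glucocorticoids, had 18324 and 5005 bp. Foxo1, the factor upstream of both ligases, had 4265 bp of H3K18la and 6446 bp of H3K4me3 at its promoter, and was the nearest gene to 25 distal regions with H3K18la only and 5 with both. All 10 genes of this list had a distal region with H3K18la nearest to them, which held for 30.0% of all protein-coding genes.

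Clock genes had both marks in 11 of 12, against 32.2% of all genes. H3K18la was the wider in 7 of these 11, beside 46.4% of all genes with both. Per1 (11133 and 6473 bp), Nr1d1 (15862 and 6793 bp) and Cry2 (14775 and 4958 bp), repressors of the clock, had more H3K18la than H3K4me3 bases. The repressors Per2 (5194 and 5910 bp), Per3 (2497 and 3649 bp) and Cry1 (1478 and 3829 bp) had fewer. Clock itself had 2631 bp of H3K4me3 only.

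Of the ubiquitously expressed genes, those in the list of ribosomal proteins and elongation factors mostly had H3K4me3 only, whereas all listed housekeeping genes had both marks. All 14 genes of ribosomal proteins and elongation factors had H3K4me3 and 13 had H3K27ac, but H3K18la was called at 5 (Rpl3, Rps18, Rps27a, Eef1a1 and Eef2). Thus 9 of 14 were H3K4me3 only, beside 31.3% of all protein-coding genes. At the 5 with both the medians were 1306 bp of H3K18la and 4309 bp of H3K4me3. At the 9 without H3K18la the maximum H3K4me3 coverage ranged from 67 at Rplp0 and 83 at Rpl5 to 284 at Rps6, beside a median of 106 for promoter regions with both. Of the mitochondrial genes 10 of 14 had both, against 32.2% of all genes, and 28.6% had H3K4me3 only, near the 31.3% of all genes. The latter were Cox4i1, Cox5a, Uqcrfs1 and Sdha, all subunits of the respiratory chain, with maximum coverages of 253, 143, 188 and 305. Other subunits of the chain, Cox7a1, Uqcrc1, Ndufs1, Ndufv1 and Sdhb, had both marks. H3K27ac was called at Cox4i1, Cox5a and Sdha. Mb (myoglobin) had 15949 bp of H3K18la and 4312 bp of H3K4me3. All 9 housekeeping genes had both, against the same 32.2%, with Gapdh at 7703 and 6865 bp and Tfrc at 1149 and 2533 bp. The housekeeping list also holds a ribosomal protein gene, Rpl13a, with 6719 bp of H3K18la and 7575 bp of H3K4me3.

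Developmental regulators of other tissues mostly had H3K4me3 only, together with H3K27me3, which 25.4% of all genes with H3K4me3 only carried. Of 16 genes 13 had H3K4me3 only and 3 neither (Sox1, Neurog1 and Hand1), and all 16 had H3K27me3 and none H3K27ac. Pax6, of the eye and brain, had 6375 bp of H3K4me3 with a maximum of 85, Lhx2 6250 bp with 75 and Gata6 4707 bp with 114. Of 5 pluripotency genes Sox2 and Esrrb had H3K4me3 only, and Pou5f1, Nanog and Zfp42 neither, beside 31.3% and 34.6% of all genes. Of 10 genes specific to other organs 9 had neither mark.

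The label of the tissue was checked with its markers. Of the 10 markers of skeletal muscle 8 had both marks and all had H3K27ac. Of the markers of other cell types, all 7 of endothelium (H3K18la 1266 to 8112 bp) and 5 of 6 of fibroblasts had both marks, against 32.2% of all genes. With 2 of 6 for smooth muscle and pericytes and 1 of 5 each for adipocytes (Fabp4) and Schwann cells, the other lists were near or below that share. Fabp4 is also expressed in endothelium. H3K27ac was called at 3 of the 7 endothelial and 3 of the 6 fibroblast markers, and at 10 of 10 muscle markers. Over all protein-coding genes it was called at 85.0% of those with both marks, 48.3% with H3K4me3 only and 5.00% with neither. None of the 6 macrophage markers had both marks (Csf1r had H3K18la only), and none of the 5 lymphocyte markers had either. The part that nuclei of other cell types have in the classes was not tested.

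The regions with the largest total signal were called in nearly every list of the series. The 5 promoter regions with both marks and the largest H3K18la signal were called in 22 to 24 of the 24 lists, including H3K27me3 of GAS. A set of 40 regions called in at least 20 lists and in GAS H3K27me3, defined after their values were seen, held 25.4% of the total H3K4me3 signal and 4.16% of that of H3K18la, and 39 of them were classed as both. Signal totals are therefore not compared between classes. Without these 40 regions 36.9% of promoter regions had both marks and 68.1% of distal regions H3K18la only.

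Without them the strongest promoter region with both marks spanned 84415 bp at Zmiz1, a coactivator of nuclear receptors (chr14:25455532-25539946). A single H3K18la peak held 9 H3K4me3 peaks of 13631 bp in all there. In a region of 53145 bp at Tns1, a focal adhesion protein (chr1:73984775-74037919), H3K18la covered 52809 bp and H3K4me3 12039 bp. A promoter region of 66358 bp on chromosome 12 (chr12:79884722-79951079), 161915 bp from the TSS of Zfp36l1 and a promoter region through other transcripts, held a single H3K4me3 peak of 819 bp. The strongest distal region with both marks spanned 61193 bp (chr9:48691850-48753042), 82903 bp from the nearest TSS, that of Zbtb16, a zinc finger repressor induced by glucocorticoids. All H3K4me3 of that region, 8 peaks of 14714 bp in all, lay within the H3K18la peak.

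The strongest promoter region with H3K18la only, 46092 bp wide, lay at Mical2, a monooxygenase that acts on actin (chr7:112254714-112300805). The strongest distal one, 15536 bp wide, lay 101942 bp from the TSS of Foxn2 (chr17:88323234-88338769). Further strong distal regions without H3K4me3 lay nearest to Vstm2l, Usf3, Msi2 and Stk10, with widths of 20584, 24558, 27458 and 32550 bp. All 10 of the strongest regions with H3K18la only, promoter and distal, held H3K27ac and none held H3K27me3. These counts are near the shares of strong H3K18la regions in general. In the highest of 5 groups by maximum H3K18la coverage, with or without H3K4me3, H3K27ac was called in 96.6% of promoter and 86.5% of distal regions. H3K27me3 was called in 5.07% and 5.05%.

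The strongest promoter region with H3K4me3 only covered 8947 bp of Wnt5a, a secreted signalling protein (chr14:28503298-28512244), and held H3K27me3 and no H3K27ac. Arpc5l, a subunit of the actin-nucleating Arp2/3 complex, had 6412 bp with H3K27ac and without H3K27me3. Other entries lay near Zfp992 and Zfp986 in a zinc finger gene cluster of chromosome 4, and read placement there was not tested. The promoter regions in which H3K4me3 most exceeded H3K18la lay at C130026I21Rik (48602 and 16382 bp) and Zfp988, and nearest to Fcgr3 (17800 and 2409 bp) and Zfp986. The regions near Fcgr3 and Zfp986 lay 2812 and 16281 bp from the TSS of these genes and were promoter regions through other transcripts. Leaving out a region near Gm21119 that was called in 22 of the lists, the strongest distal regions with H3K4me3 only were at Trim27 (7397 bp) and Olfr1368 (4104 bp), 5614 and 11915 bp from the TSS.

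Distal H3K18la regions gathered around certain genes. By nearest protein-coding TSS, 6491 of 21670 genes (30.0%) had at least 1 distal region with H3K18la. The genes with most, named here after the counts were seen, were Rora with 75 regions (62 with H3K18la only and 13 with both), Lpp with 57, Zfp608 with 53, Nfib with 49 and Klf6 with 45. Rora encodes a nuclear receptor that activates Arntl, Lpp an adhesion protein and Nfib a nuclear factor I. The spacing of neighbouring genes enters such a count.

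The same comparison was made with the lists of PIM, mESC-ser (stem cells in serum) and mESC-2i, which differ in length and were prepared from whole cells in the case of stem cells. The share of promoter regions with both marks was 36.9% in GAS, 49.3% in PIM, 39.5% in mESC-ser and 42.1% in mESC-2i. H3K4me3 lay within H3K18la in 2592 of 8131 of these regions in GAS, 1129 of 9138 in PIM, 1467 of 5430 in mESC-ser and 5023 of 7047 in mESC-2i. The reverse nesting held in 1787, 4928, 1537 and 262 of them, and was the more frequent of both in PIM and, by a small margin, in mESC-ser. In the order GAS, PIM, mESC-ser and mESC-2i the promoter width ratio of H3K18la to H3K4me3 was 1.03, 0.640, 0.998 and 1.84. The cell types had the same order in the ratio as in the called bases of H3K18la, which were 123, 68.9, 82.4 and 128 Mb, against 52.8, 65.1, 40.9 and 49.8 Mb of H3K4me3. In distal regions with both the ratio was above 1 in all 4 cell types, at 2.88, 1.28, 1.38 and 2.44, and highest in GAS. Distal regions with H3K18la only made up 68.0%, 59.2%, 91.0% and 67.7%. Of the genes with H3K4me3 50.7%, 59.5%, 55.6% and 54.4% had H3K18la, and of the promoter regions with H3K4me3 only 19.5%, 35.8%, 31.3% and 36.2% held H3K27me3 of the same cell type. With 1 list per mark and cell type no difference between the cell types was tested.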

How the data were processed

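CUT&Tag libraries of 2 GAS samples each for H3K18la and H3K4me3 were compared, and the lists of the other marks and cell types served as readouts. The authors trimmed reads with Trim Galore 0.6.6, aligned them to mm10 with Bowtie2 2.4.4, sorted them with SAMtools 1.13, computed fragment coverage with bedtools 2.30, combined the replicates and called peaks with SEACR 1.3 (stringent mode, top 1% of regions). The deposited lists give, per peak, a score (the total signal, that is fragment coverage summed over its bases) and the maximum signal (its highest coverage). Both were whole numbers and not scaled for depth, so signal was compared within a list only. The authors also removed peaks in blacklisted regions, per their methods. No blacklist was applied here, and the lists hold a few regions of very high coverage that were called in nearly every list.

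The autosomes 1 to 19 and chromosome X were analysed, which left out 9 H3K18la and 22 H3K4me3 peaks on chromosome Y and 1 mitochondrial peak of each. TSSs came from the 139486 transcripts of 53843 genes of GENCODE M21 (GRCm38), which matched the chromosome lengths of the files, and sequences from RefSeq's GRCm38.p6. A region was nested when all bases of a mark lay in peaks of the other. Calculations used Python 3.11.15, numpy 2.4.6, pandas 2.3.3 and scipy 1.17.1. Overlaps were compared with those of bedtools 2.31.1 and the classes of 6000 of 6000 simulated regions were recovered. With 1 pooled list per mark there were no replicates to test.

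Genes were named from lists of muscle, housekeeping, developmental and cell type marker genes, and regions by the 5 largest total signals per class and the 5 largest excesses of bases of either mark. Regions on chromosome 18 were not considered for the stretches of DNA shown. Some listed genes are not reported here by name. The members, gene lists and rules were chosen with earlier results of these data known. Of the listed symbols Aldoa has 2 gene identifiers, and both had both marks. The alternatives were a promoter window of 1000 bp, protein-coding TSSs only, at least 50% of the smaller mark shared, peaks within 1000 bp joined, the 5000 largest peaks of each list, and lists of equal called bases. A further 2 were added after seeing the data.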

Additional observations from a re-analysis of the deposited data

Results flagged for a closer look

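Peaks on chromosome Y, which were outside every comparison, were called in both lists, 9 for H3K18la and 22 for H3K4me3, although the study describes the mice as female. Of these, 8 and 21 began beyond 90 Mb, near the distal end of the chromosome. They held 0.0600% of the H3K18la signal and 0.0297% of the H3K4me3 signal.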

How the results depend on the processing

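The cause of the changes below was not tested unless the setting itself shows it. Of 43 values under an alternative, 15 stayed within the 95% interval of the reported value and 28 did not. Promoter regions with both marks (36.9% as reported) made up 39.5% with a window of 1000 bp, 41.4% with protein-coding TSSs, 36.0% with 50% of the smaller mark shared, 40.7% with peaks joined within 1000 bp, 17.0% with the 5000 largest peaks and 13.5% at equal called bases. In the same order, without the sharing rule, H3K18la-only regions (68.0% of distal regions as reported) made up 66.9%, 65.8%, 67.0%, 92.0% and 16.8%, and promoter regions with H3K4me3 nested (31.9%) 30.6%, 24.7%, 28.9%, 52.3% and 61.1%. The promoter width ratio (1.03) was 0.905 with protein-coding TSSs, 1.72 with the 5000 largest peaks and 1.96 at equal bases. Genes with H3K4me3 that also had H3K18la (50.7%) made up 49.2% with 1000 bp, 49.7% with the sharing rule, 51.6% with joined peaks, 20.1% with the 5000 largest peaks and 13.6% at equal bases. H3K4me3-only promoter regions with H3K27me3 (19.5%) made up 20.6% with joined peaks, 5.74% with the 5000 largest peaks, 14.7% at equal bases and, in a setting added after seeing the data, 15.1% in a window of 200 bp at the H3K4me3 maximum. The other added setting, without the 40 regions called in nearly every list, kept all 6 values within their intervals. Reducing a list leaves fewer peaks that can overlap (6601 of H3K18la beside 28915 of H3K4me3 at equal bases). No paired analysis was possible because the replicates of each mark were pooled into 1 list, and leaving out a replicate was not possible for the same reason. Depth per sample was not analysed here.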
